A study of Mus musculus with 12 samples.

Results

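The genes described here encode the proteins that recognize bacterial lipopolysaccharide (LPS) at the cell surface and pass the signal to the first adaptors and kinases inside the cell. They are Lbp, Cd14, Ly96, Tlr4, Tlr2, Myd88, Tirap, Ticam1, Irak2 and Map3k8, a list of 10 genes given by name. All their probes in the non-normalized table were used, 20 of 45281, and 18 of them were detected on at least 1 array. All 10 genes had a probe that could be tested, among 9307 named genes tested.

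Livers of 12 mice of a mixed 129/Ola × C57BL/6 strain, 3 in each of 4 groups, were profiled one by one on Illumina BeadChips to compare Tmprss6 KO mice with iron-deficient wild-type mice at rest and during inflammation. Control littermates of wild-type genotype were kept on an iron-deficient diet from 4 weeks of age for 3 weeks (IDA), and Tmprss6 KO mice were kept on an iron-replete diet for the same time (KO), so that genotype and diet cannot be told apart in any comparison of KO with IDA livers. At 7 weeks of age mice of both genotypes were injected with saline (untreated, UT) or with LPS of Escherichia coli O26:B6 at 0.1 mg/kg, and livers were taken 6 h later. Both arms are models of iron deficiency, by diet in the IDA groups and by loss of Tmprss6, which restrains hepcidin, in the KO groups.

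LPS released from bacterial membranes is picked up in the blood by LPS-binding protein, handed to CD14 and presented to the complex of TLR4 with MD-2, the product of Ly96. The engaged receptor recruits TIRAP and MyD88, which activate IRAK kinases and NF-kB, and, after internalization, TRIF, the product of Ticam1, which leads to interferon regulatory factors. In the liver Kupffer cells, sinusoidal endothelial cells and hepatocytes meet LPS from the gut through the portal blood, and hepatocytes secrete LPS-binding protein as an acute-phase protein.

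Each array detected 12641 to 14423 probes (detection p under 0.01). The log2 intensities of any pair of livers correlated at 0.91 to 0.99 over 11571 features, 1 probe per gene symbol and the tested probes without a symbol. For Tmprss6 the log2 intensity spanned 9.43 to 11.21 over IDA livers and 7.72 to 8.39 over KO livers, without overlap. The X-inactivation transcript Xist was high (11.84 to 12.05) in liver 1 of IDA UT and livers 1 and 2 of KO UT, against 4.80 to 6.73 elsewhere, and Eif2s3y of the Y chromosome was detected in the other 9 livers only. The study's methods describe the KO mice as male, so livers 1 and 2 of KO UT stand apart from it. For the IDA mice of the arrays the methods give no sex. All 3 Xist-positive livers are untreated, so apparent sex is partly confounded with LPS, in KO more than in IDA livers. The LPS responses and the difference between them carry this imbalance. Where a call for one of the 10 genes changes without these 3 livers, the value is given beside it. The hepatocyte markers Apoa1 and Ttr were detected in all groups.

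Regulatory sequence upstream of the members was matched by symbol in RefSeq (build GRCm38.p6, 250 bases before to 50 after the start of the gene), with an entry searched for 5 of the 10 genes, Tlr2, Myd88, Tirap, Ticam1 and Irak2. The windows of Tlr2 and Myd88 are shown because, of the 3 searched genes whose LPS response differed by test between IDA and KO livers (Tlr2, Myd88 and Irak2), these held matches to the motifs put in capitals, so they were chosen after the search. Capitals mark matches to the NF-kB motif in Tlr2 and, in Myd88, to the STAT motif TTCNNNGAA and the interferon-stimulated response element, all searched on both strands and counted from the gene start without a position 0. The NF-kB motif and the interferon element are given by name alone.
Tlr2, chr3:83841559-83841858, minus strand: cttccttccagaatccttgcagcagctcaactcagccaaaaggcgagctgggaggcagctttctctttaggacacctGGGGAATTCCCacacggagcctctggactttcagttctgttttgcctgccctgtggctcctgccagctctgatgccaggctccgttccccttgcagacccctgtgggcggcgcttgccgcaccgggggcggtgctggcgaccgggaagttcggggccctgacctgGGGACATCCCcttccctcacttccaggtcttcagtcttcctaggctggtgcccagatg
Myd88, chr9:119339969-119340268, minus strand: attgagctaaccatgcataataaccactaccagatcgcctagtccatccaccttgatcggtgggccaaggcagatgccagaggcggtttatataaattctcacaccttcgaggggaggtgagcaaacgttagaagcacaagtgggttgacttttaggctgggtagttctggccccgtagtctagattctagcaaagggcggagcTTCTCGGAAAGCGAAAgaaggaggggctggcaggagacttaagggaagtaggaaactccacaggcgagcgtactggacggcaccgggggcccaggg

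In Tlr2 the first run of capitals holds 2 overlapping NF-kB matches that start at -173 and -172, and the second run starts at -8. A match to this motif is held by 4.51% of 32851 promoter windows of the same length. In Myd88 the STAT match starts at -46 and the interferon element at -40, and they overlap. These motifs are held by 8.3% and 3.44% of the windows. The C/EBP motif TTNNGNAA, held by 40.7% of windows, was matched in Tlr2 and Tirap, and the AP-1 motif TGANTCA (7.81%) in none of the 5 genes. Ticam1 and Irak2 held none of the 5 motifs in these windows. A match is a description of the letters, and binding was not measured here.

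Of the 10 genes, 9 rose after LPS in IDA livers, 6 rose in KO livers, and the KO response was smaller by test in 5, Cd14, Tlr2, Myd88, Irak2 and Map3k8. Over all features, 21.9% rose in IDA and 10.2% in KO livers. The KO response minus the IDA response was called negative in 5.49%. The mean log2 intensity was highest in IDA LPS livers in 9 genes, and in KO LPS livers in Tlr4. Differences are given as log2 ratios of normalized intensities from limma, called at an adjusted p under 0.05 over all 11571 features, and each gene is read by its brightest probe. Levels of different probes are not compared. Since whole liver was profiled, fewer cells of a type and less RNA per cell cannot be told apart. The p-values set each difference against the spread between livers, pooled over the 4 groups and moderated over all features. They cover these livers only. The comparisons of LPS with untreated livers and of KO with IDA livers share groups and are set side by side for that reason.

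**Figure D1:**
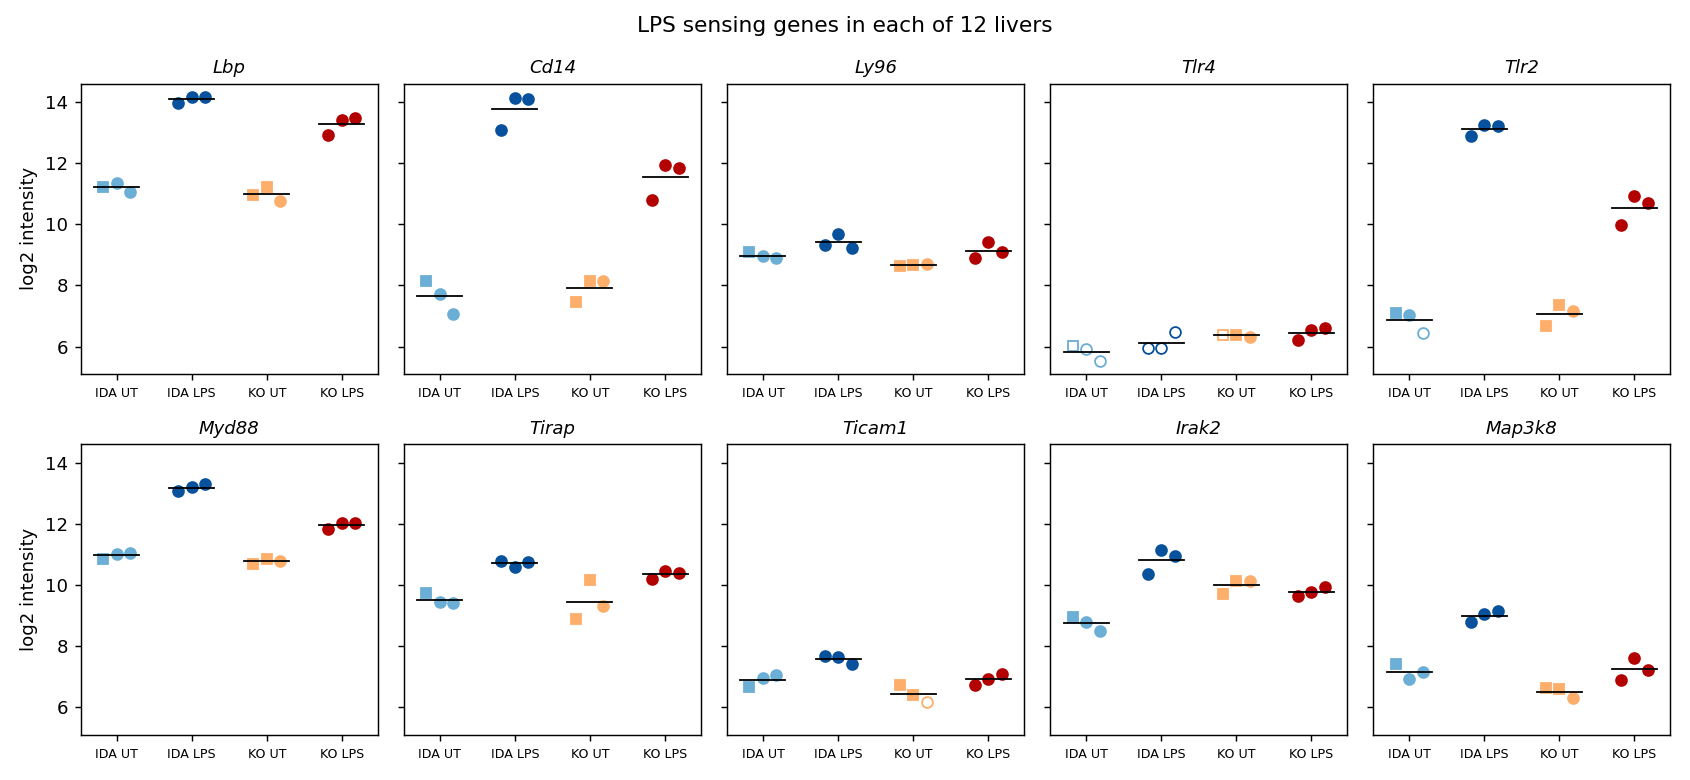
Log2 intensity (vertical axis) of the brightest probe of each of the 10 genes in each of 12 livers, by group. Points are livers, lines are group means, open symbols mark livers where the probe was not detected and squares mark the 3 Xist-positive livers. Cd14 and Tlr2 cover the widest range, with IDA LPS livers at the top, and Tlr4 lies at the detection limit.

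Lbp encodes the soluble carrier that transfers LPS to CD14. Its log2 intensity was 11.23, 11.36 and 11.05 in the 3 IDA UT livers and 13.96, 14.17 and 14.17 in IDA LPS livers. KO UT livers gave 10.98, 11.24 and 10.77, and in KO LPS livers 12.92, 13.41 and 13.49. Both LPS groups lay above both untreated groups, and every KO LPS liver lay below every IDA LPS liver. LPS raised Lbp 7.40-fold in IDA livers (log2 ratio 2.89, standard error 0.17, adjusted p = 2.59e-07) and 4.84-fold in KO livers (2.28, adjusted p = 6.08e-06). After LPS, Lbp was 1.78-fold lower in KO livers (-0.83, adjusted p = 0.00426). The difference between the responses was -0.61 with a 95% confidence interval of -1.14 to -0.09 and was not called (adjusted p = 0.126).

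Cd14 encodes the membrane-anchored co-receptor that takes LPS over from LPS-binding protein. In IDA livers its log2 intensity was 8.13, 7.72 and 7.07 without and 13.09, 14.12 and 14.09 with LPS. In KO livers it was 7.45, 8.15 and 8.15 without and 10.81, 11.95 and 11.86 with LPS. The untreated groups overlapped, and after LPS the highest KO liver lay 1.14 below the lowest IDA liver. On the scale of raw average bead signal this was a step from 233.0 to 416.2 up to 7971 to 16653 in IDA livers, and from 270.7 to 431.2 up to 2050 to 4167 in KO livers. LPS raised Cd14 69.9-fold in IDA livers (log2 ratio 6.13, standard error 0.38, adjusted p = 3.74e-07) and 12.3-fold in KO livers (3.62, adjusted p = 7.65e-05). KO LPS livers were 4.69-fold below IDA LPS livers (-2.23, adjusted p = 0.00161), and the Interaction contrast, the KO response minus the IDA response, was -2.51 (standard error 0.54, adjusted p = 0.0149).

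Ly96 encodes MD-2, the TLR4 partner that binds the lipid part of LPS. Its log2 intensity was 9.10, 8.95 and 8.89 in IDA UT and 9.33, 9.69 and 9.22 in IDA LPS livers. In KO livers the values were 8.65, 8.68 and 8.69 without and 8.90, 9.42 and 9.10 with LPS. LPS-treated livers lay above untreated livers of the same genotype in both cases, by small steps. The rise was 0.43 in IDA livers (adjusted p = 0.0337) and 0.46 in KO livers (adjusted p = 0.0526, not called), and the responses differed by 0.03 with a 95% confidence interval of -0.44 to 0.50. The IDA call was lost without any of IDA UT 2, IDA UT 3 and IDA LPS 2 (adjusted p = 0.0805 to 0.136) and without the 3 Xist-positive livers (0.0626).

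Tlr4 encodes the LPS receptor itself, and its mRNA was barely measurable on these arrays. The brightest of its 3 probes was detected in 5 of 12 livers, all KO, and another probe was detected in none. The log2 intensity was 6.02, 5.91 and 5.53 in IDA UT, 5.96, 5.95 and 6.47 in IDA LPS, 6.39, 6.39 and 6.32 in KO UT and 6.20, 6.53 and 6.62 in KO LPS livers. The lowest detected intensity of an array was 6.19 to 6.66, so that detection varied with the array as well as with the signal. No comparison was called, at an LPS response of 0.30 in IDA (95% confidence interval -0.08 to 0.69) and 0.09 in KO livers (-0.30 to 0.47). The KO minus IDA ratios of 0.55 before and 0.33 after LPS changed sign, to -0.11 and -0.15, once each undetected value was set to the detection floor of its array, and no lower limit of a fold above 1 follows.

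Tlr2 encodes the receptor for bacterial lipoproteins, which shares CD14 and the adaptors with TLR4. Its log2 intensity in IDA livers was 7.11, 7.05 and 6.45 without LPS, the last not detected, and 12.89, 13.26 and 13.21 with LPS. In KO livers it was 6.68, 7.37 and 7.15 without and 9.98, 10.93 and 10.70 with LPS. The untreated groups overlapped at the foot of the range, and after LPS the groups were 1.96 apart at their nearest livers. LPS raised Tlr2 76.3-fold in IDA livers (log2 ratio 6.25, standard error 0.26, adjusted p = 4.60e-08) and 11.1-fold in KO livers (3.47, adjusted p = 6.85e-06). KO LPS livers were 6.01-fold below IDA LPS livers (-2.59, adjusted p = 9.49e-05), and the Interaction contrast was -2.78 (standard error 0.37, adjusted p = 0.00171). Among the 10 genes this was the most negative Interaction ratio, and it was -2.59 with the authors' normalized intensities, -2.77 with the undetected liver set to that floor and -2.99 without the 3 Xist-positive livers. The Tlr2 window printed above holds NF-kB matches.

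**Figure D2:**
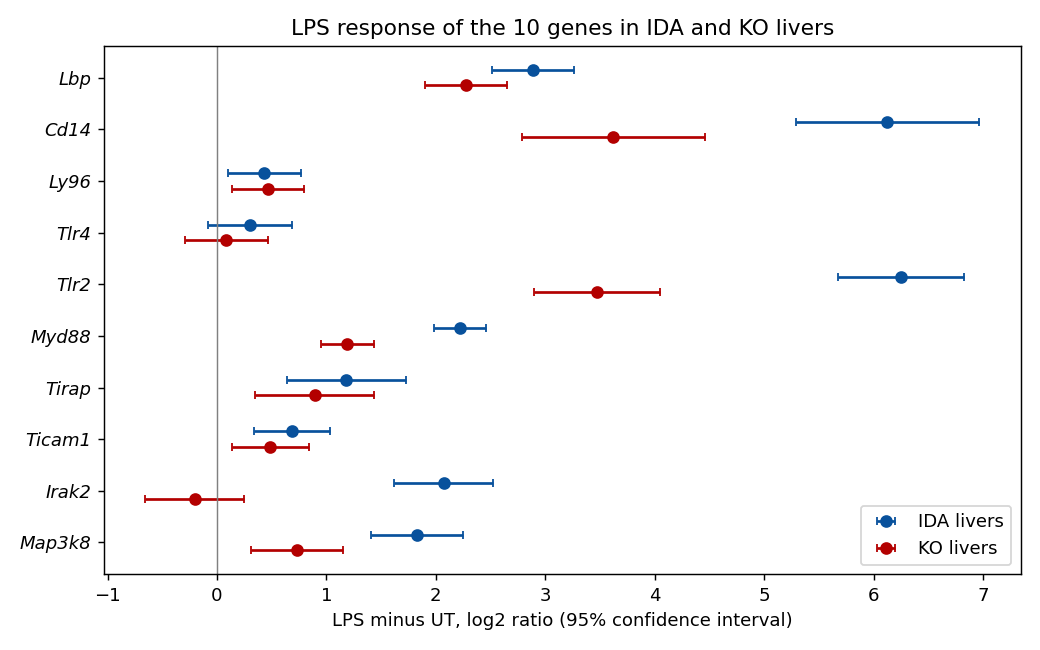
Log2 ratio of LPS over untreated livers (horizontal axis) for each gene in IDA (blue) and KO livers (red), with 95% confidence intervals from the model over all 12 livers. The KO interval lies below the IDA interval without overlap in Cd14, Tlr2, Myd88, Irak2 and Map3k8, and the KO interval spans 0 in Tlr4 and Irak2.

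Myd88 encodes the adaptor used by TLR4, TLR2 and the interleukin-1 receptor. Its log2 intensity was 10.87, 11.02 and 11.04 in IDA UT and 13.07, 13.21 and 13.31 in IDA LPS livers. In KO livers it was 10.68, 10.87 and 10.79 without and 11.84, 12.03 and 12.02 with LPS. The livers of a group lay close together, and KO LPS livers sat between the untreated and the IDA LPS livers. LPS raised Myd88 4.66-fold in IDA livers (2.22, standard error 0.11, adjusted p = 8.73e-08) and 2.28-fold in KO livers (1.19, adjusted p = 2.62e-05). After LPS the KO level was 2.34-fold lower (-1.23, adjusted p = 4.46e-05), and the Interaction ratio was -1.03 (standard error 0.15, adjusted p = 0.00292). The dimmer of its 2 probes gave -1.20 after LPS (adjusted p = 0.000954) and an Interaction ratio of -0.77 that was not called (adjusted p = 0.0906).

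Tirap encodes the membrane adaptor that bridges TLR4 or TLR2 to MyD88. Its log2 intensity in IDA livers was 9.74, 9.44 and 9.40 without and 10.78, 10.60 and 10.75 with LPS. In KO livers the values were 8.90, 10.16 and 9.31 without and 10.20, 10.45 and 10.40 with LPS. KO UT livers were widely spread, KO UT 2 nearly reaching the LPS-treated KO livers. LPS raised Tirap by 1.18 in IDA (adjusted p = 0.00221) and 0.89 in KO livers (adjusted p = 0.0276), and the Interaction ratio of -0.29 was not called (95% confidence interval -1.06 to 0.48). After LPS the KO and IDA livers differed by -0.36, not called with all livers (adjusted p = 0.299). It was called in a fit without the 3 Xist-positive livers, all untreated. That fit has the same ratio, and only the pooled spread and the adjustment of p differ. The call of the KO response was lost without any of KO UT 1, KO UT 3, KO LPS 2 and KO LPS 3 (adjusted p = 0.0782 to 0.0915). All 4 Tirap probes rose after LPS in IDA livers, by 0.66 to 1.18, and 3 of them in KO livers.

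Ticam1 encodes TRIF, the adaptor of the branch that leads to interferon. In IDA livers its log2 intensity was 6.68, 6.96 and 7.06 without and 7.68, 7.65 and 7.42 with LPS. In KO livers it was 6.72, 6.41 and 6.19 without LPS, the last not detected, and 6.74, 6.94 and 7.10 with LPS. KO LPS livers lay within or near the range of IDA UT livers. LPS raised Ticam1 by 0.68 in IDA livers (1.61-fold, adjusted p = 0.00414), and the KO ratio of 0.49 was not called (adjusted p = 0.0536, and 0.0487 without the 3 Xist-positive livers). After LPS the KO level was lower by -0.66 (adjusted p = 0.010) on this probe, and the other Ticam1 probe was at -0.29 (adjusted p = 0.0809). The responses differed by -0.20 (95% confidence interval -0.69 to 0.30), not called.

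Irak2 encodes a kinase of the complex assembled on MyD88, which keeps NF-kB signalling going after the first hours. Its log2 intensity was 8.96, 8.78 and 8.49 in IDA UT and 10.36, 11.15 and 10.95 in IDA LPS livers. In KO livers it was 9.71, 10.12 and 10.15 without and 9.65, 9.77 and 9.94 with LPS. Untreated KO livers all lay above untreated IDA livers, LPS-treated KO livers all lay below LPS-treated IDA livers, and both KO groups shared the range in between. LPS raised Irak2 4.21-fold in IDA livers (2.07, standard error 0.21, adjusted p = 9.82e-06), and in KO livers the ratio was -0.20 (95% confidence interval -0.65 to 0.25, adjusted p = 0.540). KO livers were 2.37-fold above IDA livers before LPS (1.25, adjusted p = 0.0120) and 2.04-fold below after LPS (-1.03, adjusted p = 0.00384), and the Interaction ratio was -2.27 (standard error 0.29, adjusted p = 0.00140). The difference in untreated livers was not called without IDA UT 3 (adjusted p = 0.0529), without KO UT 2 (0.0515) or without the 3 Xist-positive livers (1.51, adjusted p = 0.0710, with 1 KO UT liver left). Both brighter probes of its 3 were called higher in untreated and lower in LPS-treated KO livers and for the Interaction contrast, whereas the dimmest gave 0.51, -0.78 and -1.29 there, none called (adjusted p = 0.384, 0.0524 and 0.0603), and was called for the IDA response.

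Map3k8 encodes a kinase, also called TPL2, that links LPS to the ERK pathway. In IDA livers its log2 intensity was 7.42, 6.93 and 7.15 without and 8.78, 9.06 and 9.15 with LPS. In KO livers the values were 6.64, 6.61 and 6.29 without and 6.90, 7.62 and 7.22 with LPS. KO UT livers lay near the detection limit. KO livers lay below IDA livers in both conditions without overlap, and KO LPS livers covered the range of IDA UT livers. LPS raised Map3k8 3.55-fold in IDA livers (1.83, standard error 0.19, adjusted p = 1.61e-05) and 1.66-fold in KO livers (0.73, adjusted p = 0.0221). The KO level was 3.37-fold lower after LPS (-1.75, adjusted p = 0.000136), while the ratio of -0.65 before LPS was not called (adjusted p = 0.106). The Interaction ratio of -1.10 (adjusted p = 0.0274) lost its call without any of 8 single livers (adjusted p = 0.0517 to 0.0660) and without the 3 Xist-positive livers (-0.996, adjusted p = 0.138), and the KO response lost its call without KO UT 3, KO LPS 2 or KO LPS 3 (adjusted p = 0.0560 to 0.0915) and without the Xist-positive livers (0.0719).

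The list was chosen with earlier results of these data known, so its counts are a description and not a test. Over the list, LPS in IDA livers raised 9 of 10 genes, where 21.9% of all features rose, and their median log2 ratio was 1.95 against -0.06 over all features. In KO livers 6 of 10 rose against 10.2% of features, at a median of 0.81 against -0.04. After LPS 7 of 10 genes were lower in KO than in IDA livers against 13.7% of features, at a median of -0.93 against 0.02. The genes not called there were Ly96 (-0.27), Tlr4 (0.33) and Tirap (-0.36). Tirap, at the same ratio, was called in the fit without the 3 Xist-positive livers, all of them untreated. In untreated livers Irak2 alone was called higher, 1 of 10 against 1.59% of features, and the median was -0.13. The Interaction contrast called 5 of 10 lower against 5.49% of features, at a median of -0.82 against 0.03. Groups did not overlap in 9 genes for LPS in IDA livers, 8 for LPS in KO livers and 8 for KO against IDA livers after LPS, all in the direction of the calls, where 25.6%, 18.1% and 21.8% of features were apart in that direction. In untreated livers KO and IDA groups were apart in 5 genes, 2 higher in KO (Tlr4 and Irak2) and 3 lower (Ly96, Myd88 and Map3k8), against 11% and 11.3% of features. The Myd88 groups were apart by only 0.00155 on the log2 scale and overlapped on its dimmer probe. Tlr4 was detected in no IDA UT liver.

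Of the 18 detected probes, 16 rose in IDA livers after LPS, where 46.7% of 16286 probes were called in either direction, and 10 rose in KO livers (17.8%). After LPS 9 of 18 were lower in KO livers (28.9%), 16 of 18 ratios being negative and the other 2 those of Tlr4. For Interaction 6 of 18 were lower (9.81%), and in untreated livers 2 were higher, both of Irak2 (2.43%). Probes of 1 gene share its RNA and are not independent.

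**Figure D3:**
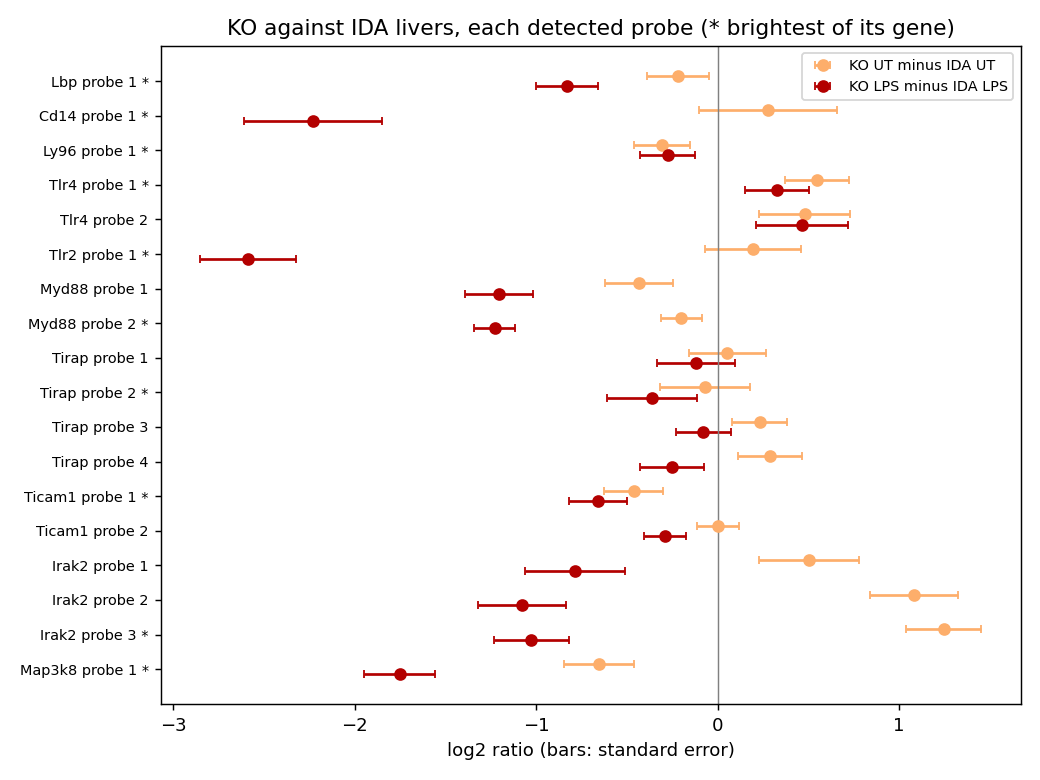
Log2 ratio of KO over IDA livers (horizontal axis, bars are standard errors) for each of the 18 detected probes, in untreated (orange) and LPS-treated livers (red). The probes of Myd88 share a direction in each comparison, as do those of Irak2, and the Irak2 probes lie on opposite sides of 0 before and after LPS.

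Some livers lay at the same end of their group in most of these genes. KO LPS 1 was the lowest of the 3 KO LPS livers in all 10 genes, with a median deviation from the group mean of -0.24 against -0.01 over all features, and IDA LPS 1 was the lowest of its group in 6 genes. Among untreated livers IDA UT 1 was the highest of its group in 7 genes and IDA UT 3 the lowest in 7. Without KO LPS 1 the same 7 genes stayed lower in KO than in IDA livers after LPS, among them Tlr2 (-2.31, adjusted p = 0.000325), and the Interaction call of Map3k8 was lost (adjusted p = 0.0577). After subtraction of group means, Cd14 correlated with Tlr2 at r = 0.93 and with Irak2 at 0.88 over the 12 livers, which share arrays and normalization, and the other pairs with Tlr2 ranged from -0.24 for Ticam1 to 0.77 for Lbp. Without that subtraction Cd14 and Tlr2 correlated at 0.996, and Tlr4 and Tlr2 at 0.22.

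Outside the list and its pathway, the genes whose log2 intensity over the 12 livers was most like that of Myd88 were Icam1, the adhesion molecule that binds leukocyte integrins (r = 0.997), Sec22b (0.996) and Ngdn (0.996). Those most like Tlr2 were Steap4, a metalloreductase (0.995), Clec4d, a myeloid lectin receptor (0.994), and Nans (0.994). Clec4d (0.992) and Nans (0.991) were also among the 3 most like Cd14, with Gsdmd, the pore-forming effector of pyroptosis (0.993). Those most like Lbp were Gbp2 (0.994), Calhm6 (0.993) and Slco3a1 (0.993). These genes were picked as the highest r among all other named genes, without a test. Group means were not subtracted here, so r includes the differences between groups. For Tlr2 with Myd88, r was 0.98 without and 0.55 with that subtraction.

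The other genes of the Toll-like receptor pathway responded in part in the same way. Of 70 listed genes 51 were tested, and 25 rose and 8 fell after LPS in IDA livers (21.9% and 26% of all features), while 15 rose and 2 fell in KO livers (10.2% and 8.57%). After LPS 15 were lower and 4 higher in KO than in IDA livers (13.7% and 16.1%), and the Interaction contrast called 11 lower and 1 higher (5.49% and 5.46%). Their median ratios were 0.36, 0.14, -0.19 and -0.17 in these comparisons. In untreated livers 3 were higher in KO, the transcription factor genes Jun (2.15, adjusted p = 0.00840) and Fos (3.65, adjusted p = 0.0482) and the phosphatase gene Dusp1 (1.64, adjusted p = 0.0365), against 1.59% of features higher and 0.907% lower. Without the 3 Xist-positive livers 8 pathway genes were called for LPS in KO livers, in place of 17. The count in untreated livers was 5 without IDA UT 1, 1 without any single one of 9 other livers (IDA UT 2 and 3, all IDA LPS, KO UT 2 and 3, KO LPS 1 and 2), and 1 with the replicate number as a block.

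Among the other Toll-like receptors, Tlr6, a partner of TLR2, rose in IDA livers by at least 1.48-fold (adjusted p = 1.72e-06), its untreated livers being undetected, and its Interaction ratio was -0.97 (adjusted p = 0.00590). Tlr5, the flagellin receptor, went the other way. It fell in IDA livers from 8.61 to 9.14 down to 6.80 to 7.07 (log2 ratio -1.91, adjusted p = 1.54e-06), and KO LPS livers, at 8.62 to 8.92, stayed 1.82 above IDA LPS livers (adjusted p = 2.42e-05). Its Interaction ratio was 1.51 (adjusted p = 0.00185), the single positive call of the pathway list. Tlr1 was detected in 2 KO LPS livers and in no liver of the other groups, and KO LPS livers were at least 1.06-fold above IDA LPS livers. It passed the detection filter through that group alone, so its call, counted above, gives no support.

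Of 4 tested genes for co-receptors, chaperones and trafficking, 3 rose in IDA and 2 in KO livers (21.9% and 10.2% of all features). Hsp90b1, the chaperone needed for folding of Toll-like receptors, rose by 1.31 in IDA (adjusted p = 8.13e-06) and 0.71 in KO livers (adjusted p = 0.00256), with an Interaction ratio of -0.60 that was not called (adjusted p = 0.0558). Unc93b1, which carries receptors to endosomes, rose by 1.12 in IDA (adjusted p = 0.000621) and 0.76 in KO livers (adjusted p = 0.0189). Of 9 genes of IRAK and TRAF signalling, Irak1 (-0.40, adjusted p = 0.0148) and Ube2n (-0.41, adjusted p = 0.00817) fell in IDA livers, and the other 7 were not called. Over all features 26% fell there. Tbk1 and Ikbke encode kinases that phosphorylate interferon regulatory factors, and the difference between these genes was not tested. Tbk1 rose less in KO livers (Interaction -0.67, adjusted p = 0.0413), and Ikbke rose by 3.16 in IDA and 2.91 in KO livers (adjusted p = 5.82e-07 and 5.19e-06), with a difference of -0.25 that was not called (95% confidence interval -0.90 to 0.41).

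Of 9 transcription factor genes 8 rose in IDA and 3 in KO livers (21.9% and 10.2% of all features). Relb, an NF-kB subunit, was undetected in untreated livers and rose by at least 5.73-fold in IDA and at least 1.06-fold in KO livers, with an Interaction ratio of -2.56 (adjusted p = 0.000656). Nfkb2 was detected only in IDA LPS livers, at least 2.51-fold above KO LPS livers. It too passed the detection filter through 1 group alone, so its call gives no support, also where counted above. Irf7, the interferon-induced regulatory factor, rose by 3.67 in IDA and 3.05 in KO livers, and the difference was not called (-0.62, adjusted p = 0.325). Of 11 genes that restrain the pathway 7 rose in IDA and 4 in KO livers, and 5 had a negative Interaction call (5.49% of all features). Tnfaip3, which encodes the ubiquitin-editing enzyme A20, rose by 4.86 in IDA livers (adjusted p = 1.98e-07) against 0.81 in KO livers (adjusted p = 0.0600, not called), and Irak3, an inhibitory member of the IRAK family, rose by 4.94 and 3.64.

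**Figure D4:**
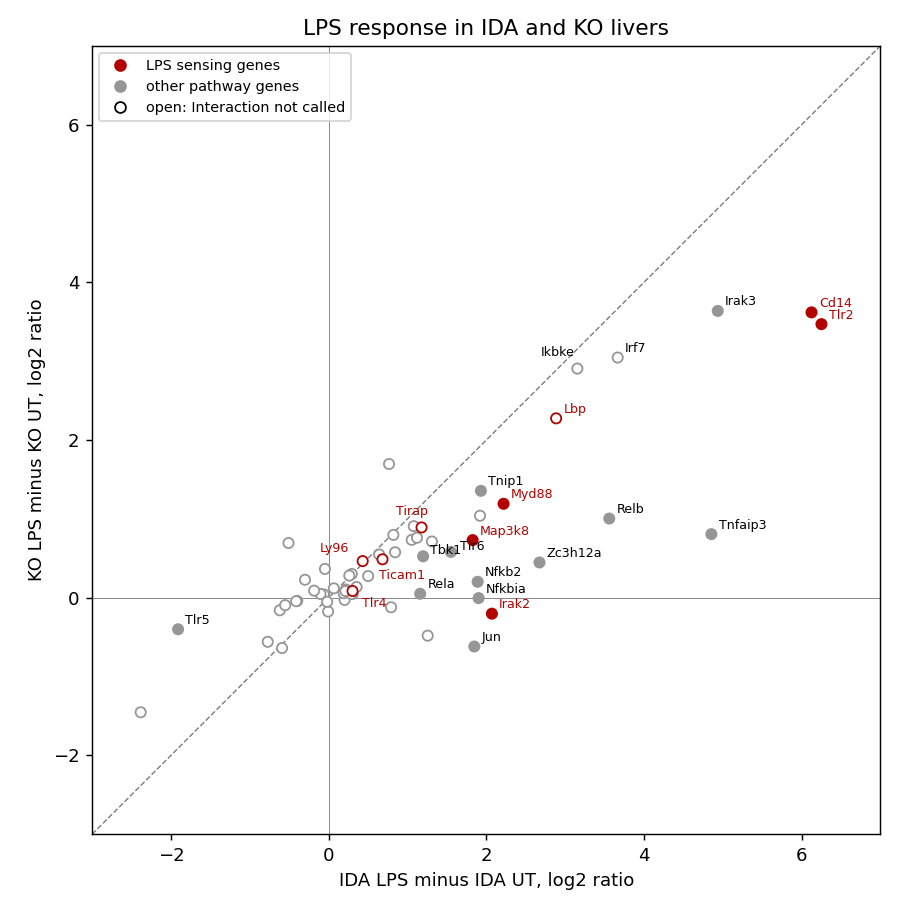
LPS response in KO livers (vertical axis, log2 ratio) against that in IDA livers (horizontal axis) for the 10 LPS sensing genes (red) and 51 other genes of the pathway (grey), with the line of equal response. Filled points have a called Interaction contrast, and those of Cd14, Tlr2, Myd88, Irak2 and Map3k8 lie below the line, and Tlr5 is the filled point above it.

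Markers of several cell types also differed between the groups, in both directions. Over all features, 21.9% rose and 26% fell after LPS in IDA livers, and 10.2% rose and 8.57% fell in KO livers. After LPS 16.1% of features were higher and 13.7% lower in KO than in IDA livers. Of 7 tested neutrophil markers 6 rose after LPS in IDA and 5 in KO livers, and after LPS 4 were lower in KO than in IDA livers (S100a8, Mmp9, Cxcr2 and Retnlg). Cxcr2 was detected only in IDA LPS livers, at least 1.52-fold above KO LPS livers. It passed the detection filter through that group alone, so its calls, counted here, give no support. The summed intensity of the 7 neutrophil markers was 666 to 2032 in IDA UT, 14953 to 19118 in IDA LPS, 932 to 1360 in KO UT and 3664 to 8678 in KO LPS livers, and KO LPS 1 had the lowest sum of its group. The sums add linear intensities, and after LPS most of each came from S100a8 and S100a9. Of these S100a9 was not called lower in KO LPS livers (adjusted p = 0.0551). The defining neutrophil markers S100a8 and S100a9 were at 13.36 to 13.73 and 11.68 to 12.16 in IDA LPS livers and at 11.15 to 12.55 and 9.90 to 11.06 in KO LPS livers, whereas Ngp, Camp, Mmp8, Elane and Mpo were detected on no array. Of 11 macrophage markers 7 fell and 2 rose after LPS in IDA livers, and 3 fell and 2 rose in KO livers. Of these 11, 8 were higher and 1 lower (Mpeg1, -1.17) in KO than in IDA livers after LPS, with sums of 5455 to 6259 in IDA LPS and 5766 to 9524 in KO LPS livers that overlapped. Of 8 endothelial markers 6 fell after LPS in IDA and 3 in KO livers, with sums of 9663 to 11666 in IDA UT, 3358 to 4571 in IDA LPS, 11596 to 14001 in KO UT and 6901 to 8178 in KO LPS livers. After LPS 5 of the 8 were higher in KO than in IDA livers. The 2 monocyte markers that could be tested, Chil3 and F13a1, were undetected in untreated livers and rose after LPS in both genotypes. Chil3 was 2.29-fold lower in KO LPS than in IDA LPS livers (adjusted p = 0.00435), and the monocyte sums were 297 to 367 and 386 to 671. After LPS 2 of 5 stellate cell markers were higher in KO livers (sums of 14389 to 17468 against 11748 to 12164), as was 1 of 6 hepatocyte markers, Alb (0.65, adjusted p = 0.0134). The lymphocyte markers gave no tested gene. The part of these cell types in the LPS sensing genes was not tested.

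**Figure D5:**
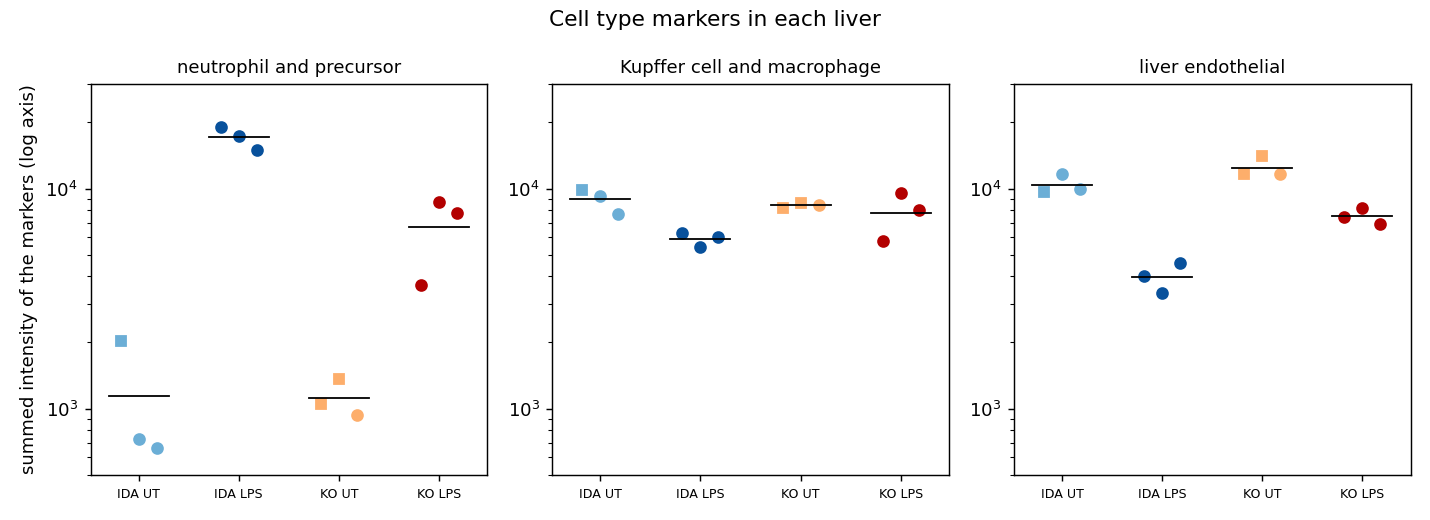
Summed intensity of the tested markers of 3 cell types (vertical log axis, linear intensity units) in each liver, by group. Lines are group means and squares mark the 3 Xist-positive livers. After LPS the neutrophil sums of IDA livers lie above those of KO livers, and the endothelial sums lie below them.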

How the data were processed

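Liver RNA of 12 mice was hybridized by the authors to MouseWG-6 v2 BeadChips and read with GenomeStudio, whose version, and the placing of arrays on chips, are not given in the sources used here. The deposited table gives the average bead signal (intensity, not normalized) and a detection p-value per probe, and the authors' normalized intensities come from cubic spline normalization. Rank correlation between both was 1 on every array, and 0 sample columns were left unused. Probes were named through the platform annotation: 34885 had 1 symbol, 18 several and 10378 none, and 0 symbols needed an update.

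For the analysis the neqc function of limma 3.58.1 (R 4.3.3, statmod 1.5.0) corrected the deposited intensities for background with an offset of 16, normalized them by quantiles and took log2. A probe was kept if any array detected it (p under 0.01; 16286 probes), and the probe with the highest mean stood for its symbol, leaving 11571 features. Limma was fitted to 4 group means over 12 livers with empirical Bayes moderation, and p-values were adjusted by Benjamini-Hochberg within each of 5 contrasts. Where no liver of a group detected a gene, the fold is given as at least N-fold, the mean of the detected group against the mean, over the other group's arrays, of the higher of the array's lowest detected intensity and the probe's own. Replicate numbers come from the labels and name no shared animal. The number of arrays limits the precision.

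The members and the gene lists were chosen with earlier results of these data known. Named were all 10 members, the 3 called genes of largest ratio per pathway role, called and defining markers, label checks and the 3 genes most like Lbp, Cd14, Tlr2 and Myd88; the text gives part of these. Results were recomputed with median scaling, the authors' intensities, uncorrected background, stricter or no filtering of dim probes, the mean over probes, only the compared groups, the replicate number as a block, trended and robust moderation, an absolute log2 ratio over 1, undetected values at the lowest detected, and leaving out the 3 Xist-positive livers or each liver in turn. Steps were tested on simulated data. Of the pathway and marker lists, 51 of 70 and 39 of 59 genes could be tested. Promoter motifs were searched in Python 3.11.15 and figures drawn with matplotlib 3.10.9. The study's other measurements were not used here.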

Additional observations from a re-analysis of the deposited data

Results flagged for a closer look

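In 5 of the 10 genes the LPS response of KO livers was smaller than that of IDA livers by the Interaction test of limma. That test called 5.49% of all features lower. The KO response minus the IDA response was -2.78 on the log2 scale for Tlr2 (adjusted p = 0.00171), -2.51 for Cd14 (adjusted p = 0.0149), -2.27 for Irak2 (adjusted p = 0.00140), -1.10 for Map3k8 (adjusted p = 0.0274) and -1.03 for Myd88 (adjusted p = 0.00292). Diet differed between KO and IDA mice along with genotype and cannot be told apart from it. The Map3k8 value alone lost its call without single livers, and it was -0.996 without the 3 Xist-positive livers. The dimmer Myd88 probe (-0.77, adjusted p = 0.0906) and the dimmest Irak2 probe (-1.29, adjusted p = 0.0603) were not called by this test.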

How the results depend on the processing

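Over the planned settings other than leaving out 1 liver, 559 of 590 comparisons of single genes kept their direction and call, 15 lost and 11 gained a call, and 5 changed sign, none of them called. The sign changes were Tirap in untreated livers with the mean over probes (0.13), Tlr4 for KO against IDA without and with LPS when undetected values were set to the detection floor (-0.11 and -0.15), and the Interaction of Ly96 (-0.0443) and Ticam1 (0.16) without the Xist-positive livers. Without those 3 livers 0 of the 10 genes were called for KO against IDA in untreated livers, 8 pathway genes (17 with all livers) for LPS in KO livers, and 77, 817 and 542 features in untreated livers, for LPS in KO livers and for Interaction (289, 2174 and 1267 with all livers). With an absolute log2 ratio over 1 asked for, the pathway list gave 9 calls for KO against IDA after LPS, 20 for LPS in IDA and 8 for LPS in KO livers, and all features gave 136 (untreated), 783 (after LPS), 1855 (LPS in IDA), 602 (LPS in KO) and 632 (Interaction). For KO against IDA in untreated livers all features gave 856 calls without a filter and 45 with only the compared groups, and the pathway list 0 with only the compared groups and 1 with trended and robust moderation. The cause of these changes was not tested.

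Leaving out each liver in turn, KO against IDA in untreated livers gave 0 to 1 members, 1 to 5 pathway genes and 88 to 436 features, and after LPS 7 to 7, 14 to 22 and 2511 to 3638. LPS in IDA livers gave 8 to 9, 30 to 33 and 4916 to 5573, LPS in KO livers 4 to 8, 14 to 20 and 1337 to 2363, and Interaction 4 to 5, 10 to 13 and 801 to 1247. The ratios that changed sign there were not called, ranging in untreated livers from -0.00709 to 0.52 for Cd14, -0.0137 to 0.39 for Tlr2 and -0.42 to 0.21 for Tirap, and in Interaction from -0.11 to 0.17 for Ly96 and -0.57 to 0.0640 for Tirap. A group left with 1 liver is assumed to vary like the others.

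With the replicate number as a block, members called were 1 in untreated and 7 in LPS-treated livers for KO against IDA, 9 and 7 for LPS in IDA and KO livers and 5 for Interaction, and the pathway list gave 1 in untreated livers. All features gave 251, 3365, 5457, 2088 and 1099 in the same order. Deviations of same-numbered livers correlated at -0.11 to 0.24 over 18 pairs, 3 of them above 0.1. Whether same-numbered livers shared a chip cannot be told from this, since the placing of arrays on chips is not given. Tlr4, Ticam1, untreated Tlr2 and Map3k8 in KO UT livers lie near the detection limit, and 11 of the 20 probes were detected on all arrays.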
